A study of Mus musculus with 18 samples.

Results

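The extended antibody panel of the second E16.5 library comprised the antibodies that held 1000 or more counts among its 4752 cells. Of the 29 antibodies listed for the whole series, 16 met this level and 13 did not. The library was made from Lineage-Kit+ bone marrow (BM) cells of C57B6/J embryos at embryonic day 16.5 (E16.5), labelled with DNA-tagged antibodies and sorted (CITE-Seq), so that messenger RNA and surface antigens were counted in the same cells. The study compared hematopoietic progenitors (HPs) and stroma of fetal, newborn and adult BM in 9 libraries with 56201 cells in all, and the first E16.5 HP library held 560 cells of the same strain, stage and sort. Each library was a pool of animals, from several litters for the fetal and newborn ones, no mutation or treatment was named, and each library was 1 sample. Clusters of 1 library have no replicates, so no test was run and every interval below covers counting error only. The cell types are the authors' cluster codes, of which 17, each with at least 20 cells, held all 4752 cells.

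Antigens of the panel are read by immunologists as a surface code. Thy1 (CD90) and the costimulatory receptor CD27 mark T-lineage cells, the low-affinity IgG receptors CD16 and CD32 and the IL-33 receptor mark mast cells and other myeloid cells, and the complement receptor-like protein CD93 marks early B-lineage cells as well as some progenitors. CD48, CD150, CD135 (Flt3), CD34, CD41, CD105 (endoglin) and Sca-1 (Ly6A) are used in combination to order hematopoietic stem and progenitor cells, while CD115 (Csf1r), CD127 (Il7r) and Ly6C point to monocytic, lymphoid and granulocytic or monocytic cells. Surface protein need not follow the transcript, because translation, transport, shedding and the affinity of an antibody lie between them.

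The 16 antibodies held 498041 of 498180 antibody counts. The least abundant member was CD127, with 1450 counts, and the nearest antibody outside the rule was CD44, with 57 counts. CD117 (Kit), the antigen of the sort, was listed at 0 counts, which allows up to 3 counts in the library. CD90.2 (213704 counts), CD43 (104358) and CD16and32 (65606) made up 77.01% of all counts. A cell held a median of 75 antibody counts (10th to 90th percentile 37 to 209) and a median of 18831 UMIs. The summed T list (9 genes) lay at 3240 to 9479 CPM (counts scaled to a sum of 1000000 UMIs) in the 6 TCell codes and at 149 to 580 CPM in the 3 mast codes, and the mast list (7 genes) at 413 to 3630 CPM and 52906 to 89356 CPM, respectively. UD2 (36 cells) had a median of 1064.5 UMIs and of 12.5 antibody counts, far below the other codes, and UD stands for undefined. In HSPC1 (165 cells) 1 cell with 954 antibody counts and 10578 UMIs was the highest for 13 of the 16 antibodies. Scrublet did not call it a doublet, and the HSPC1 means are given below with and without it where the order of the codes rests on it. In Mast1 single cells held 199 of 833 CD150 counts, 77 of 521 Ly6AE counts and 94 of 680 Ly6C counts. Without the highest cell for each antibody these Mast1 means were 0.73 instead of 0.96, 0.51 instead of 0.60 and 0.68 instead of 0.78. Between 1 and 20 cell names (barcode sequences) were shared with each other library. The authors had left out the cells with the most genes or UMIs as putative doublets, Scrublet called 64 of the 4752 remaining cells doublets, and all of them were used.

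Over the 16 antibodies and 17 codes, 23 of 272 means were at least 2-fold above the mean of the library's other cells (8.46%) and 57 were at most 0.5 times it (21.0%). Of the 23, 10 belonged to 1 code, Mono/Mast, in which all 16 antibodies were above the library mean and 8 were at their highest. Without the 1 cell that carried the Ly6C mean of Mono/Mast (given below), 21 means were at least 2-fold above the other cells, 8 of them in Mono/Mast, and 7 antibodies were highest there. The median antibody count of a Mono/Mast cell was 204, and as a share of the panel's counts 0 antibodies were highest in that code. CD90.2 and CD16and32 had the widest ranges. CD90.2 was 89.3-fold higher in the highest code than in the lowest and CD16and32 33.9-fold, whereas CD41 and CD135 differed by 3.33-fold and 3.43-fold.

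**Figure D1:**
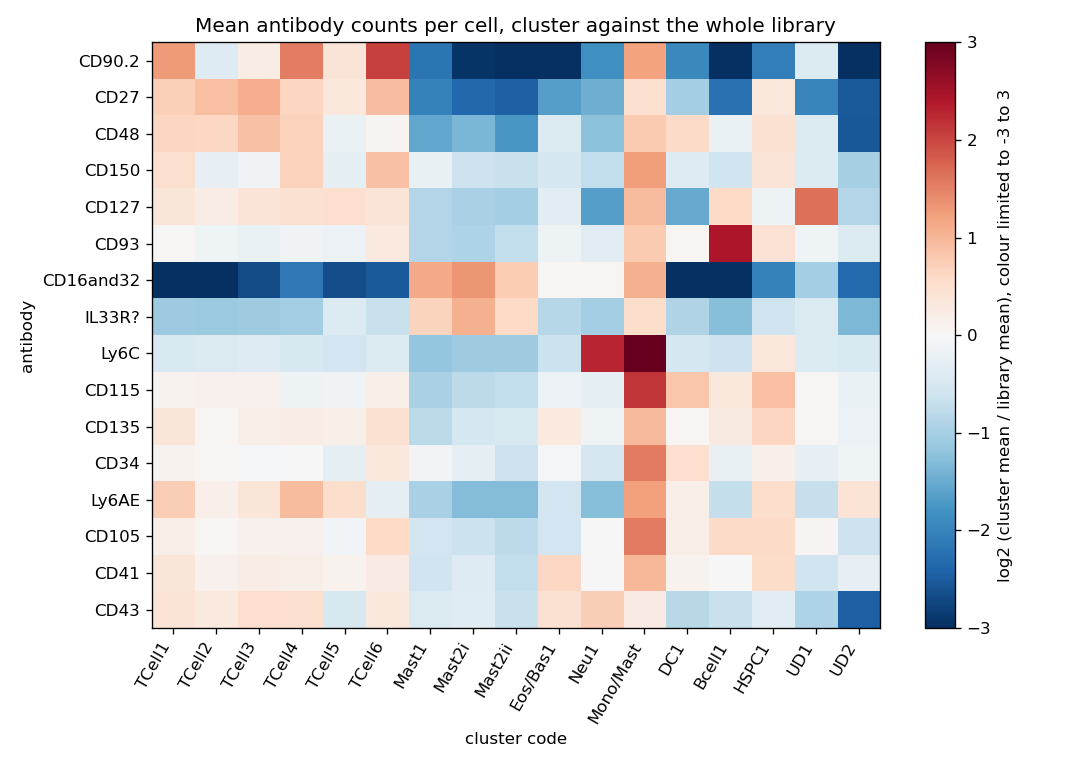
Mean counts per cell of each of the 16 antibodies (rows) in each of the 17 cluster codes (columns), as log2 of the cluster mean over the library mean, with red for higher and blue for lower. CD90.2 and CD27 are red in most TCell codes and blue in the mast codes, CD16and32 and IL33R? show the reverse, CD93 is darkest in Bcell1, and the whole Mono/Mast column is red.

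CD90.2 is the form of the T-lineage surface protein Thy1 that this strain carries. Its mean was 186 counts per cell in TCell6 (95% Poisson interval 184 to 188), 131 in TCell4, 108 in TCell1, 58.7 in TCell5, 52.5 in TCell3 and 34.5 in TCell2. It was 104 in Mono/Mast and 34.1 in UD1, and between 2.08 and 12.6 in the 9 remaining codes. The intervals of the TCell means did not overlap, but their cells did, with a 10th to 90th percentile of 116 to 247 counts in TCell6 and 55 to 165 in TCell1. The Thy1 transcript followed a similar order, at 422 CPM in TCell6, 301 in TCell4, 294 in TCell1, 160 in TCell3 and TCell5 and 134 in TCell2.

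CD27, a costimulatory receptor of the TNF receptor family, was also highest in the TCell codes, at 3.34 (TCell5) to 5.77 (TCell3) counts per cell. Mono/Mast (3.74) lay within the range of the TCell codes, HSPC1 (3.39) lay at its lower end and, without the 1 cell, below it (3.26), and the mast codes lay at 0.49 to 0.66. Cd27 was at 96.9 to 136 CPM in the TCell codes, 115 CPM in HSPC1 and 59.4 CPM in Mono/Mast. It was at 3.40 to 11.0 CPM in the mast codes and at 2.63 CPM in Bcell1, where 37.6% of cells still held at least 1 CD27 count, against 97.4% in TCell6. The median UMI count was 10854 in Bcell1 and 29691 in TCell6.

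CD48, a SLAM-family ligand that progenitors gain as they leave the stem cell state, reached 15.7 counts per cell in TCell3, 14.8 in Mono/Mast and 13.0 to 13.8 in TCell1, TCell2 and TCell4. TCell6 (8.99) and TCell5 (7.41) were lower. Its means in DC1 (12.7) and HSPC1 (11.8) lay between these. The mast codes had 2.53 to 3.32 counts per cell and Neu1 3.64. With the antibody in counts per cell and the transcript in CPM, TCell6 and the mast codes were ordered differently. These are 2 scales, since CPM is relative to a code's UMIs, whose median was 29691 in TCell6 and 13591 in Mast1. At least 1 Cd48 UMI was held by 68.6% of TCell6 cells and 56.5% of Mast1 cells, the order of the antibody. TCell6 held 8.99 CD48 counts per cell (95% interval 8.52 to 9.47) with 50.7 CPM of Cd48, whereas Mast1 held 2.89 counts (2.77 to 3.00) with 79.5 CPM. As a share of the code's antibody counts, CD48 was 3.68% in TCell6 and 4.16% in Mast1, in the order of Cd48. CD90.2 alone made up 76.25% of the counts in TCell6 and 14.27% in Mast1. A large CD90.2 share lowers those of all other antibodies in a code, here and below. An order of shares therefore does not show the level of the antigen.

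CD150, another SLAM receptor (Slamf1), was low throughout. It was highest in Mono/Mast (2.65 counts per cell), followed by TCell6 (2.05), TCell4 (1.80) and TCell1 (1.56), and lay between 0.56 and 1.46 in the other codes. Slamf1 was detected at no more than 6.39 CPM in any code, so its order rested on few UMIs (23 in TCell6 and 16 in Mono/Mast). HSPC1, with 1.45 CD150 counts per cell (1.02 without the 1 cell), held 1.25 CPM of Slamf1.

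**Figure D2:**
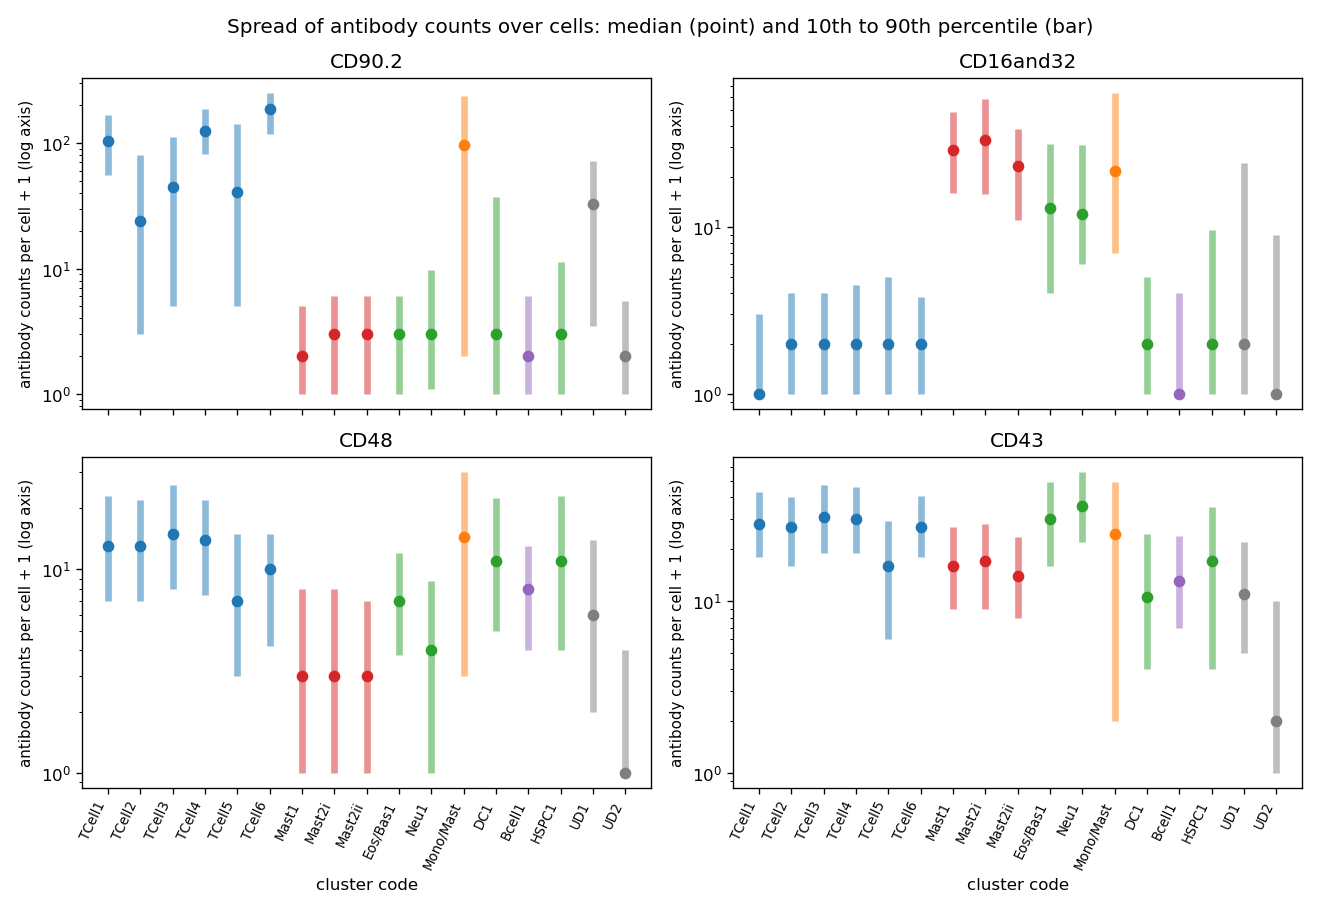
Antibody counts per cell plus 1 (log axis) of CD90.2, CD16and32, CD48 and CD43 by cluster code, with points for medians and bars from the 10th to the 90th percentile of cells. The mast codes lie under all TCell medians for CD90.2 and above them for CD16and32. Mono/Mast spans the mast and TCell medians for CD90.2 but lies above the TCell bars for CD16and32, and UD2 lies lowest for CD43.

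CD127, the IL-7 receptor alpha chain, was the scarcest member and was highest in UD1, an unnamed code of 76 cells, at 0.96 counts per cell (95% interval 0.75 to 1.21). Mono/Mast (0.58), Bcell1 (0.46), TCell5 (0.43) and the other TCell codes (0.35 to 0.42) followed. The intervals of Bcell1 and the TCell codes overlapped each other, and that of Mono/Mast (0.47 to 0.72) lay above those of TCell1, TCell2 and TCell3. Il7r reached 1151 CPM in UD1, against 240 CPM in TCell5 and 194 CPM in Bcell1. Il2rg, which encodes the common gamma chain that pairs with CD127, was also highest in UD1 (219 CPM), followed by TCell5 (168 CPM). In UD1 52.6% of cells held a CD127 count, against 12.3% in Mast1, where Il7r was at 13.0 CPM. The median UMI count was 6136 in UD1 and 13591 in Mast1.

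CD93 stood out in a single code. Bcell1 held 11.2 counts per cell (95% interval 10.7 to 11.7), with a 10th to 90th percentile of 4 to 21, and 98.3% of its cells held at least 1 count. The next codes were Mono/Mast (3.65) and HSPC1 (2.87), and all others lay between 1.12 and 2.58 (TCell6). Without the 1 cell HSPC1 was at 2.19, below TCell6. Cd93 was highest in the same code, at 74.5 CPM, and next highest in HSPC1, at 38.7 CPM. Bcell1 was above the library mean for 6 of the 16 antibodies and had the lowest Thy1 level of the 17 codes (3.07 CPM), with 2.64 CD90.2 counts per cell.

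CD16and32, an antibody against the IgG receptors Fcgr3 and Fcgr2b, averaged 34.6 counts per cell in Mast2i (95% interval 34.1 to 35.2), 30.2 in Mast1 and 23.2 in Mast2ii. Mono/Mast lay at 28.8, Eos/Bas1 at 14.5 and Neu1 at 14.4, while the TCell codes lay at 1.02 to 3.14 and Bcell1 at 1.45. Fcgr3 was at 372 to 508 CPM in the mast codes and 485 CPM in Eos/Bas1, so Eos/Bas1 had less antibody than Mast1 at a nearly equal transcript level. Fcgr2b was at most 48.2 CPM, in Neu1, and at 3.57 to 7.94 CPM in the mast codes. Fcer1g, the signalling chain that carries Fcgr3 to the surface, was at 995 CPM in Eos/Bas1 and 1796 to 2754 CPM in the mast codes.

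The antibody listed as IL33R?, with a question mark in its deposited name, was compared with Il1rl1, the gene of the IL-33 receptor ST2. It averaged 4.03 counts per cell in Mast2i (95% interval 3.86 to 4.21), 3.04 in Mast1 and 2.88 in Mast2ii. Mono/Mast followed at 2.75, and all other codes lay between 0.75 and 1.44. Il1rl1 was at 544 CPM in Mast1, 394 in Mast2i and 363 in Mast2ii, then 224 in UD1 and 157 in Eos/Bas1. In Eos/Bas1 and UD1 the antibody was 1.05 and 1.42 counts per cell, within or close to the range of the TCell codes (0.88 to 1.44), where Il1rl1 was at 1.06 to 91.6 CPM. At least 1 Il1rl1 UMI was held by 27.6% of UD1 cells and 64.6% of Eos/Bas1 cells, against 95.9% to 99.2% in the mast codes. A minority of UD1 cells thus carried its Il1rl1, while the antibody mean covers all of them. UD1 also held 25253 CPM of the mast list. IL33R? made up 1.57% of the antibody counts in Eos/Bas1 and 2.00% in UD1, against 0.47% to 1.44% in the TCell codes. Codes with little Il1rl1 had like shares, with 1.95% in DC1 at 1.23 CPM and 1.70% in Bcell1 at 19.7 CPM.

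Ly6C, on granulocytes and monocytes, averaged 8.58 counts per cell in Neu1 (median 5), against 0.78 to 2.22 in the codes other than Mono/Mast. The upper value is that of HSPC1, which was at 1.51 without its 1 cell of 119 Ly6C counts. Ly6c2 was at 468 CPM in Neu1 and at most 8.43 CPM, in HSPC1, in the other 16 codes. Ly6c1 was at 12.3 CPM in UD2, from 2 UMIs only, and at most 8.43 CPM in the other codes, in TCell1 (91 UMIs). Reads of the near-identical pair may be split uncertainly. The Mono/Mast mean of 18.5 rested on 1 cell with 2388 Ly6C counts, 91.2% of the code's total, which held 110 counts of the other antibodies, 305 UMIs of the monocyte or macrophage list and 0 UMIs of Ly6c1 and Ly6c2. Without that cell the mean was 1.64.

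CD115, the M-CSF receptor of monocytes and macrophages, was highest in Mono/Mast, at 3.54 counts per cell (95% interval 3.23 to 3.86), but its median there was 1 count. HSPC1 (1.48, or 1.31 without the 1 cell) and DC1 (1.43) followed, and the mast codes were lowest, at 0.41 to 0.48. Csf1r was at 232 CPM in Mono/Mast, 45.2 CPM in HSPC1 and 18.4 CPM in DC1. In UD2 all 12 Csf1r UMIs (73.6 CPM) came from 1 cell, which also held 11 CD115 counts. The CD115 mean of that code was 0.69, or 0.40 without this cell.

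CD41, CD135 and CD34 had the narrowest ranges of the 16 antibodies, 3.33-fold to 4.51-fold between the highest and the lowest code. CD135, the Flt3 receptor tyrosine kinase, averaged 2.34 counts per cell in HSPC1 (95% interval 2.11 to 2.58), below Mono/Mast (2.92) and above TCell6 (2.05). Its place above TCell6 rested on the 1 cell, which held 111 CD135 counts and without which HSPC1 was at 1.68. Flt3 was at 56.5 CPM in HSPC1, 88.5 CPM in DC1 and 0.54 CPM in Mono/Mast. DC1, with the most Flt3, held 1.55 CD135 counts per cell (1.24 to 1.92), with an interval that overlapped that of TCell1 (1.92, 1.81 to 2.04), where Flt3 was at 0.19 CPM. CD135 made up 2.97% of the antibody counts in DC1 and 1.13% in TCell1, but also 3.85% in Bcell1, where Flt3 was at 7.89 CPM. With these shares rho over the 17 codes was 0.43. The share of cells with a CD135 count was 80.4% in DC1 and 77.7% in TCell1, with median UMI counts of 11998 and 18052.

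CD34, a sialomucin of progenitors and mast cell precursors, did not separate the codes that held its transcript on the scale of counts per cell. Cd34 was at 185 CPM in HSPC1 and at 118 to 137 CPM in the mast codes, against 2.63 CPM in Bcell1 and 3.06 CPM in TCell6. The antibody averaged 0.50 counts per cell in HSPC1 (95% interval 0.40 to 0.62), 0.42 in Mast1 (0.38 to 0.47), 0.39 in Bcell1 (0.30 to 0.49) and 0.56 in TCell6 (0.45 to 0.69). The 1 cell held 29 of the 83 CD34 counts of HSPC1, and without it the mean was 0.33, below Bcell1. In Mast1 another single cell held 63 of 369 CD34 counts, and without that cell the Mast1 mean was 0.35, also below Bcell1. As a share of the code's antibody counts, CD34 was 0.79% in HSPC1 (0.57% without its 1 cell) and 0.52% to 0.61% in the mast codes. It was lower in TCell6 (0.23%, where CD90.2 made up 76.25%), while Bcell1 was at 0.84%. At least 1 count was held by 29.1% of HSPC1 cells and 32.0% of Bcell1 cells, with median UMI counts of 17647 and 10854. Mono/Mast, at 1.32, was the highest code, followed by DC1 (0.64).

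Ly6AE, an antibody named for Sca-1, was highest in Mono/Mast (2.76 counts per cell), TCell4 (2.27) and TCell1 (1.97), with HSPC1 at 1.70 (1.46 without the 1 cell), TCell5 at 1.69 and the mast codes at 0.48 to 0.60. Ly6a was at 35.9 CPM in TCell1, 27.6 in TCell4, 30.9 in HSPC1 and 2.06 to 6.86 CPM in the mast codes. TCell6 was low for both, with 1.97 CPM and 0.97 counts. In UD2 all 21 Ly6a UMIs (129 CPM) came from 1 cell, which also held 44 Ly6AE counts. The Ly6AE mean of UD2 was 1.58 with that cell and 0.37 without it. Mono/Mast held 10.3 CPM of Ly6a. CD105, a TGF-beta co-receptor, averaged 2.28 in Mono/Mast and 1.16, 1.16 and 1.15 in TCell6, HSPC1 and Bcell1, with HSPC1 at 0.88 without the 1 cell. Its gene Eng was at 15.3 CPM in HSPC1 and 13.2 CPM in Bcell1 but 0.87 CPM in TCell6. As a share of the code's antibody counts CD105 was 0.48% in TCell6, 1.82% in HSPC1 (1.51% without the 1 cell) and 2.48% in Bcell1. DC1, with 0 UMIs of Eng, was at 1.71%. CD90.2 made up 76.25% of the counts in TCell6, 16.72% in HSPC1 and 5.69% in Bcell1.

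CD41, the integrin alpha IIb chain of megakaryocytes and early progenitors, averaged 1.88 counts per cell in Mono/Mast, 1.46 in Eos/Bas1 (95% interval 1.20 to 1.75) and 1.39 in HSPC1 (1.21 to 1.58). Without the 1 cell, which held 78 CD41 counts, HSPC1 was at 0.92, below all 6 TCell codes. Itga2b was highest in Eos/Bas1, at 23.3 CPM, and next at 12.1 and 10.9 CPM in TCell2 and TCell3. Itgb3, which encodes its partner chain, was at 84.9 CPM in TCell5 and 22.4 CPM in Eos/Bas1. CD41 was 1.02 to 1.22 in all 6 TCell codes, although Itga2b ranged there from 0 to 12.1 CPM. CD41 made up 1.12% of the antibody counts in TCell2 and 0.93% in TCell3, the TCell codes with the most Itga2b, against 0.46% in TCell6, 0.55% in TCell4, 0.72% in TCell1 and 1.02% in TCell5. The CD90.2 share was also lowest in TCell2 (37.47%) and TCell3 (44.11%), against 59.06% (TCell5) to 76.25% (TCell6) in the other TCell codes.

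CD43, the leukocyte sialomucin encoded by Spn, gave at least 1 count in 99.4% of all cells and in 66.7% of UD2 cells. A single count does not show the antigen, since CD27 counts were held by 37.6% of Bcell1 cells at 2.63 CPM of Cd27. The CD43 means lay between 11.5 (UD1) and 36.7 (Neu1) in every code but UD2 (4.03). Neu1 led with a 95% interval of 35.3 to 38.1, followed by TCell3 (31.0), TCell4 (30.8) and Eos/Bas1 (30.3). Spn was highest in the same Neu1 code (64.4 CPM) and in Eos/Bas1 (62.4 CPM). TCell6 had 18.2 CPM of Spn and 27.2 counts, whereas Mast1 had 45.0 CPM and 16.2 counts. As a share of the code's antibody counts the order turned to that of Spn, with CD43 at 11.1% in TCell6 and 23.4% in Mast1. The CD90.2 share, 76.25% in TCell6 and 14.27% in Mast1, bears on these shares whatever the level of CD43.

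Mono/Mast was resolved by the marker UMIs of its cells, a division chosen after the antibody values were seen. Of its 142 cells, 53 held at least 20 UMIs of the T list and under 100 of the mast list, 16 held at least 100 of the mast list and under 20 of the T list, 31 held both and 42 held neither. The monocyte or macrophage list was present in all 4 sets, with medians of 194.5 to 292 UMIs per cell. Scrublet called 0 of the 142 cells doublets. Median UMIs were 34779 in the T set, 21714.5 in the mast set, 37505 in the set with both and 7888 in the set with neither.

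The antibodies followed these sets. Median CD90.2 was 154 counts in the T set and 162 in the set with both, against 3.5 in the mast set and 2 in the set with neither. Median CD16and32 was 50 in the mast set, 54 in the set with both, 14 in the T set and 10.5 in the set with neither. CD48 (medians 21 and 17 against 4 and 4) and CD27 (5 and 4 against 1 and 1) moved with the T list, and IL33R? (4 and 4 against 2 and 1) with the mast list. CD115 had its highest median, 3 counts, in the set with neither list, where the monocyte or macrophage list reached 27154 CPM. By the mean it was highest in the T set, at 4.79 counts against 4.52 in the set with neither. The part that marker UMIs of several cell types in 1 cell play in the high Mono/Mast means was not tested.

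Like cells were found in the T and mast codes. In the mast codes 79 of 1804 cells held at least 20 T-list UMIs. Their median CD90.2 was 97 counts, against 1 in the other 1725, and Scrublet called 24 of the 79 and 2 of the 1725 doublets. In the TCell codes 62 of 2141 cells held at least 100 mast-list UMIs, with a median CD16and32 of 26.5 counts against 1 in the other 2079, and 27 and 4 of these cells, respectively, were called doublets. When 101 cells of the TCell codes and 91 of the mast codes with marker UMIs of another type were left out, the CD90.2 mean of Mast1 went from 9.91 to 2.17 and the CD16and32 mean of TCell4 from 3.14 to 0.86. The codes' own antibodies moved little. The CD90.2 mean of TCell4 went from 131 to 127 and the CD16and32 mean of Mast2i from 34.6 to 33.8.

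**Figure D3:**
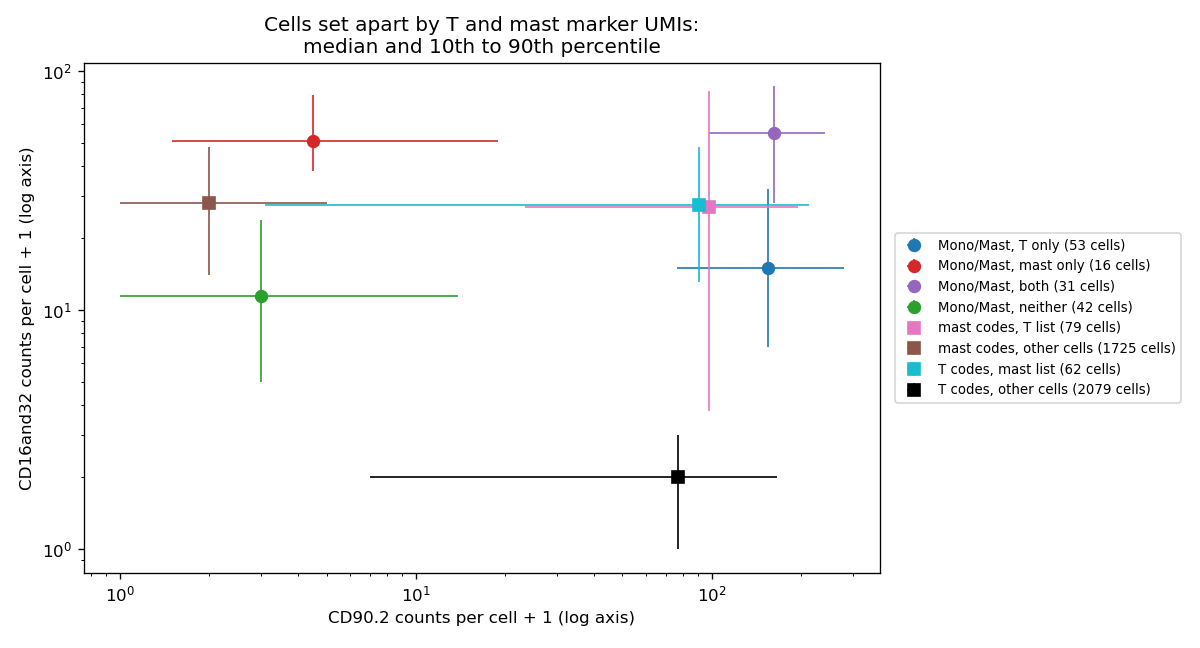
CD90.2 (x axis) against CD16and32 (y axis), both as counts per cell plus 1 on log axes, in cells set apart by their T-list and mast-list UMIs, with points for medians and bars from the 10th to the 90th percentile. Cells with both lists, from Mono/Mast (median CD90.2 162, CD16and32 54) or from the TCell and mast codes, lie in the upper right, away from the other TCell cells and the other mast cells.

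Across the 17 codes, antibody means were set against the summed CPM of the antigen's gene. Spearman's rho was at least 0.5 for 9 of 16 antibodies, with a median of 0.62, and the points share 1 library and its depth. With the genes of the other antigens it was at least 0.5 in 42 of 240 pairs, with a median of 0.19. The highest values were those of CD90.2 with Thy1 (0.89), CD16and32 with Fcgr3 (0.89), CD127 with Il7r (0.84), CD27 with Cd27 (0.79) and CD150 with Slamf1 (0.78). IL33R? (0.74), CD48 (0.69), Ly6AE (0.68) and CD93 (0.56) followed. With antibody shares in place of means, 7 antibodies instead of 9 reached 0.5, CD150 turned to -0.57, CD127 went to 0.35 and CD93 to 0.16. For 5 antibodies (CD150, CD90.2, CD127, IL33R? and CD16and32) no other antigen gene of the panel gave a higher rho.

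The remaining 7 antibodies were CD105 (0.49), Ly6C (0.44), CD43 (0.32), CD135 (0.23), CD115 (0.13), CD41 (-0.14) and CD34 (-0.19). With antibody shares CD34 turned to 0.50 and CD41 to 0.39, and without the 1 HSPC1 cell CD34 was at -0.41. For CD115 the low rho, which was 0.48 with antibody shares, stood beside the same leading code for antibody and transcript. In each antibody's highest code, the antigen gene was at least 2-fold above the other cells for 7 of 16 antibodies (CD150, CD90.2, CD93, CD115, CD127, IL33R? and CD16and32), where 7.34% of genes passed that level in the same codes. Without the 1 Mono/Mast cell of 2388 Ly6C counts it was 8 of 16. Csf1r was 70.2-fold higher in Mono/Mast (95% interval 61.5 to 80.3), Il7r 17.9-fold in UD1 (16.6 to 19.2) and Cd93 5.08-fold in Bcell1 (4.31 to 5.96). These ratios describe codes that were picked for the antibody.

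**Figure D4:**
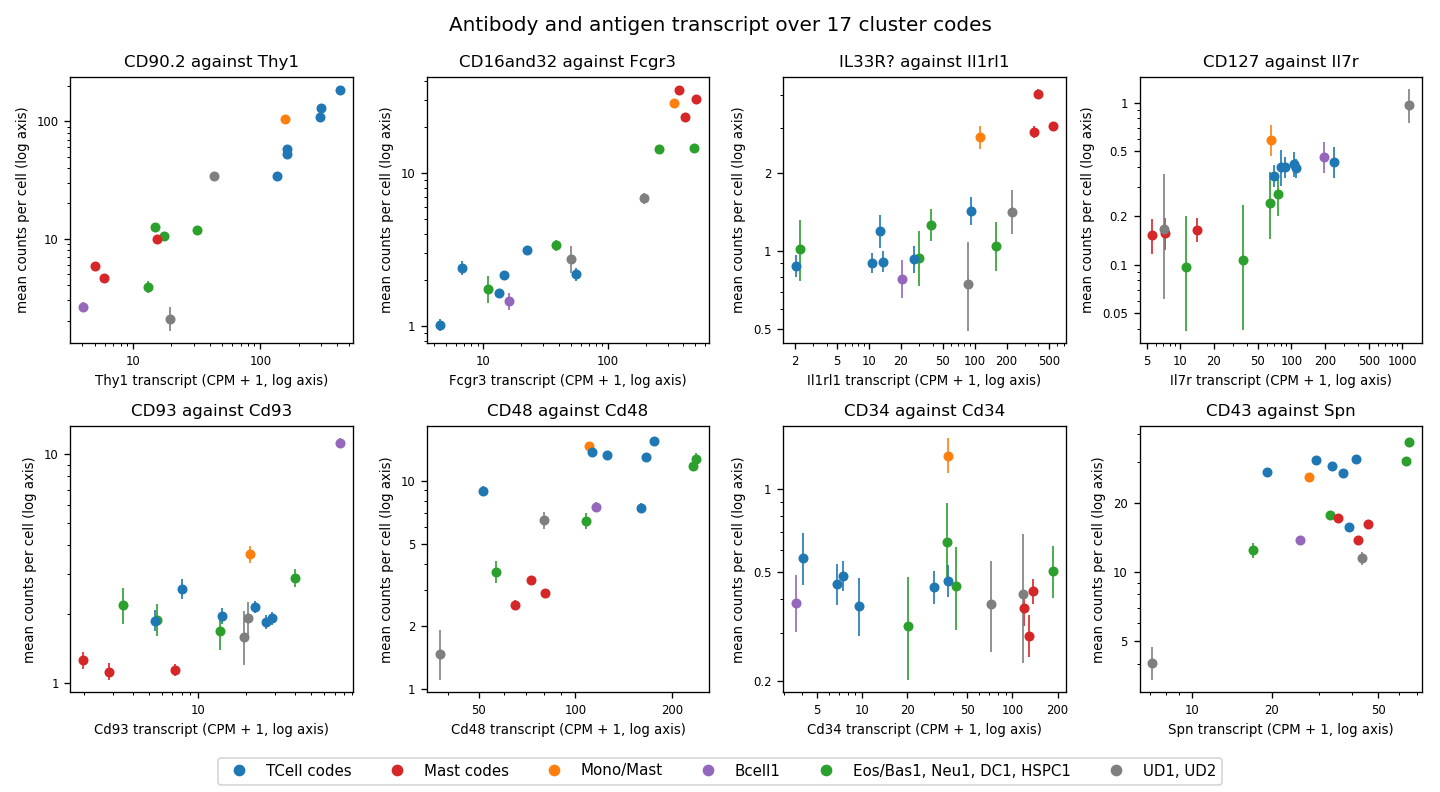
Mean antibody counts per cell with exact 95% Poisson intervals (y axis, log) against the CPM of the antigen's gene plus 1 (x axis, log) for 8 antibodies, with 1 point per cluster code. CD90.2, CD16and32 and CD127 rise with their transcripts, CD93 and IL33R? rise at the highest codes, TCell6 lies above the mast codes for CD48 with less Cd48 on this scale of counts per cell, and CD34, apart from Mono/Mast, stays between 0.29 and 0.64 counts from 2.63 to 185 CPM of Cd34.

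Within a cell type, antibody and transcript were compared between the tenth of cells with the most counts of an antibody in each code and the cells at or below the code's median. In the TCell codes the antigen gene had at least 50 counts for 14 antibodies. Its CPM was above that of the low cells for 14 of 14 (50.5% of all genes), with an interval above 1 for 11, and at least 2-fold higher for 4, where 0.551% of all genes passed 2-fold. In the mast codes it was higher for 11 of 12 (56.4% of genes), with an interval above 1 for 8, and at least 2-fold for 4 (1.45% of genes), and in Bcell1 it was higher for 3 of 3 (48.6% of genes), with an interval above 1 for 1, and at least 2-fold for 1 (0.953% of genes). This gene was Cd93, at 109 CPM in the CD93-high and 53.5 CPM in the CD93-low cells, a ratio of 2.03 (95% interval 1.23 to 3.26). With high cells chosen by the antibody's share of a cell's counts, 0 of 3 antigen genes reached 2-fold in Bcell1. Genes of another cell type were among those with the highest ratios that had at least 50 counts in the high cells. In the TCell codes the CD16and32-high cells held 25.2-fold more Fcgr3 but also 98.3-fold more Ms4a2 and 98.04-fold more Prss34, genes of mast cells and basophils, and 89.8-fold more Krt4. In the mast codes the CD90.2-high cells held 61.7-fold more Thy1 together with 278-fold more Tcrg-C4, 205-fold more Bcl11b and 191-fold more Sh2d1a, genes of T and innate lymphoid cells.

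The comparison was repeated without the cells that held marker UMIs of another type, a step added after the first values were seen. In the TCell codes the antigen gene was then at least 2-fold higher for 3 of 13 antibodies, where 0.183% of genes passed, and in the mast codes for 1 of 10, where 0.230% passed. Its CPM was above that of the low cells for 13 of 13 antibodies in the TCell codes but 7 of 10 in the mast codes. The share of all genes above 1 was not computed for these cells. The 3 genes in the TCell codes were Ly6a, Fcgr3 and Il1rl1. Ly6a was at 47.9 CPM in the Ly6AE-high cells and 14.9 CPM in the low cells, a ratio of 3.21 (95% interval 2.78 to 3.71), the second highest of 10647 genes. Cxcl10 (3.90-fold, 55 of 56 counts from 1 cell) was the other gene above 2-fold among those with at least 50 counts in the high cells.

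CD16and32-high cells of the TCell codes averaged 3.44 counts against 0.31 in the low cells and held 2.83-fold more Fcgr3 (95% interval 2.01 to 3.95). The top 3 genes among those with at least 50 counts in these cells were Klrk1 (11.5-fold), Ccl5 (10.3-fold) and Klrb1b (9.37-fold), which natural killer and other innate-like lymphocytes express. Of 763 Ccl5 counts 248 came from 1 cell, against 16 of 87 for Klrk1 and 6 of 71 for Klrb1b. Il1rl1 was 2.28-fold higher in the IL33R?-high cells (1.64 to 3.14), beside Calca (3.06-fold, 32 of 61 counts from 1 cell) and Stab2 (2.57-fold). Thy1 was 1.96-fold higher in the CD90.2-high cells (1.85 to 2.07), with 177 against 49.5 CD90.2 counts per cell, and Cd48 1.34-fold higher in the CD48-high cells (1.25 to 1.44). For Cd27 (1.15-fold), Il7r (1.17-fold), Spn (1.17-fold) and Cd34 (1.12-fold) the ratios were small, and the interval of Cd34 included 1. The CD127-high and CD34-high cells averaged only 1.26 and 1.35 counts of the antibody against 0 in the low cells.

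In the mast codes without such cells, Il7r was 3.24-fold higher in the CD127-high cells (95% interval 2.25 to 4.61) and Cd48 1.82-fold higher in the CD48-high cells (1.63 to 2.04). The 203 CD127-high cells averaged 1.25 CD127 counts against 0 in the low cells and held 48 Il7r UMIs. The share of single cells in these 48 was not computed. Before any cells were left out, 1 Mast2ii cell held 15 of that code's 38 Il7r UMIs. The top 3 genes with at least 50 counts in the CD127-high cells were Mcpt1 (6.49-fold), Gzma (4.29-fold) and Ltb (2.60-fold). Of their counts, 282 of 306, 82 of 97 and 25 of 95, respectively, came from 1 cell. With high cells chosen by the antibody's share of a cell's counts, Il7r was 2.82-fold higher without such cells, and over all mast cells it went from 3.52-fold to 1.69-fold. Il1rl1 and Fcgr3 were 1.23-fold and 1.29-fold higher in the IL33R?-high and CD16and32-high cells, which held 8.79 against 1.24 and 58.3 against 19.4 counts of the antibody. CD16and32-high mast cells also held more Mrgprb2 (3.40-fold), a receptor of connective tissue mast cells, Mrap (3.18-fold) and the chymase gene Mcpt4 (2.83-fold). IL33R?-high mast cells held more Fbp2 (2.26-fold). Cd34 (1.05-fold, 0.98 to 1.13), Spn (1.07-fold) and Itga2b (0.65-fold, 0.34 to 1.15) had intervals that included 1. Prg2 had the highest ratio of the genes with at least 50 counts in the high cells in 10 of the mast comparisons, and 57 of its 57 to 60 counts came from 1 cell.

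Antibody counts were only weakly correlated over cells of 1 code, but most were small and often tied. The library median was 0 for CD115, CD105, CD34 and CD127. It was 1 for CD27, CD93, IL33R?, Ly6C, CD135, Ly6AE, CD150 and CD41. A low rho between such counts does not show that the antigens were unrelated. Averaged over the codes by cells, Spearman's rho between 2 antibodies had a median of 0.07 over 120 pairs in the TCell codes and 0.08 over 120 pairs in the mast codes. The highest values were those of IL33R? with CD16and32 in the mast codes (0.39), CD48 with CD43 in the TCell codes (0.36) and CD16and32 with CD43 in the mast codes (0.32). The pair CD90.2 and CD27 reached 0.27 in the mast codes, where some cells held T-list UMIs. CD43 correlated with the cell's other antibody counts at 0.45 in the mast codes and 0.27 in the TCell codes, and with UMIs at 0.29 in both. The pairs share the cells and their depth.

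CD48, CD150, CD135 and Ly6AE were also measured in the first E16.5 library. In the 7 codes with at least 20 cells in both libraries the second library had fewer counts per cell for all 4 antibodies. The ratio of the second to the first was 0.03 to 0.11 for CD48, 0.04 to 0.21 for CD150, 0.07 to 0.48 for Ly6AE and 0.14 to 0.58 for CD135. The order of the codes was shared most closely for CD48 (rho = 0.93 over 7 codes), followed by CD150 and Ly6AE (0.61 each) and CD135 (0.39). The lowest CD150 and Ly6AE ratios were those of Mono/Mast, where the first-library means (61.6 and 36.9) lay far above the medians (8 and 7). The upper Ly6AE ratio was that of UD2 and rested on 1 of its cells. Without the highest cell of each code in the second library, the Ly6AE ratios were 0.07 to 0.18 with rho = 0.89, and rho was 0.29 for CD135. HSPC1 had 248 CD48 counts per cell in the first library and 11.8 in the second, and Mast2ii 54.8 and 2.53. Cd48 was at 179 and 231 CPM in HSPC1 and at 65.9 and 64.1 CPM in Mast2ii.

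Mono/Mast had the highest mean of the 7 codes in both libraries for CD150, CD135 and Ly6AE, whereas for CD48 HSPC1 had it in the first. Single cells carried much of the first library's counts. The highest cell for each antibody held 7394 of 13650 CD150 counts, 2324 of 4922 CD135 counts and 3074 of 8310 Ly6AE counts. The first-library means were not recomputed without such cells, so this order may rest on them. In the first library the mean and median of Mono/Mast stood far apart, at 61.6 and 8 counts for CD150, 36.9 and 7 for Ly6AE and 19.6 and 3 for CD135. By the median, HSPC1 lay above Mono/Mast for CD135 in the first library, at 6 counts with a mean of 6.36. The medians of the second library were 2 counts for each of these. The median antibody count per cell was 96.5 in the first library, with CD48, CD150, CD135 and Ly6AE among its antibodies, and 75 in the second, and the part of the panel's make-up in the lower counts was not tested.

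**Figure D5:**
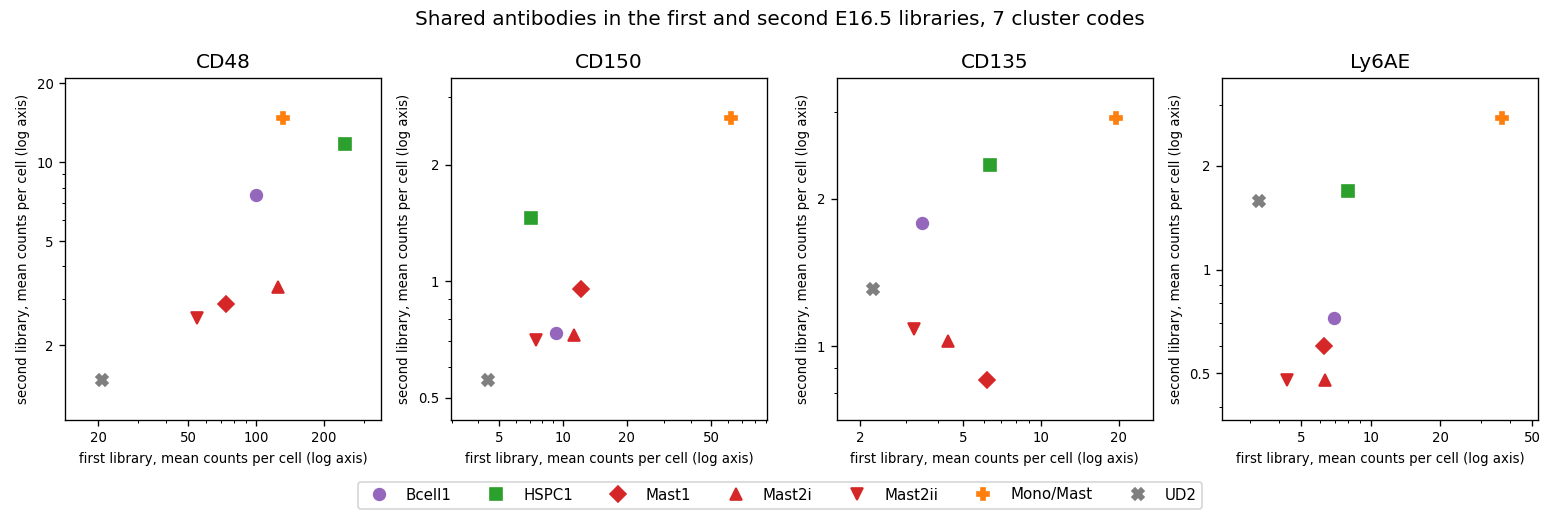
Mean counts per cell in the second E16.5 library (y axis, log) against the first (x axis, log) for the 4 antibodies used in both, with 1 point for each of 7 cluster codes. All points lie at higher values on the x axis than on the y axis. CD48 keeps nearly the same order of codes (rho = 0.93). Mono/Mast has the highest mean in both for CD150, CD135 and Ly6AE, with the highest single cells of the first library included.

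Of the 12 other members, 10 held 0 to 2 counts in each of the other 8 libraries, from 560 to 14084 cells each. The exceptions were CD127, with 8 to 801 counts per library, and CD27, with 11 counts in adult stroma and 5 in P0 stroma. CD127 averaged 0.31 counts per cell in the second E16.5 library and at most 0.13, in adult stroma, elsewhere.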

How the data were processed

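The authors deposited raw UMI counts per gene and raw antibody counts per cell, with a table that gives the library and cluster code of each cell. Per the submitters' processing notes, Cell Ranger 3.1.0, R 4.0 and Seurat 3.1.5 were used with the mm10 genome. The authors had filtered cells on genes, UMIs and mitochondrial share. Libraries were matched to samples by the library name in the labels. The members, gene lists and splits were chosen with earlier results of these data known.

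Means are raw counts per cell. Counts were summed over the cells of a code before CPM (counts scaled to a sum of 1000000 UMIs) was taken, with exact Poisson intervals, and exact Clopper-Pearson intervals for shares, at 95%. Ratios carry an interval that is exact given the summed counts. Marker cells left out held at least 100 mast-list UMIs (TCell codes) or 20 T-list UMIs (mast codes), or at least 20 UMIs of the B or monocyte list (without Csf1r) or 30 of the DC list. A gene needed at least 50 counts in high and low cells together. High cells were the top 10% of a code by counts of the antibody, ties included. For each high against low comparison the antigen's gene and the 3 genes with the highest ratio among those with at least 50 counts in the high cells were taken. Gm42418 and genes of mitochondria or ribosomal proteins were set aside, and only some of the genes taken are named above. CLR was Seurat's centered log-ratio per antibody across cells. Ly6C was set against Ly6c2 and CD16and32 against Fcgr3. Python 3.11.15, numpy 2.4.6, pandas 2.3.3, scipy 1.17.1 and Scrublet in scanpy 1.11.5 were used with fixed seeds, and the ratio step was tested on simulated data. Antibody tag sequences were not used here.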

Additional observations from a re-analysis of the deposited data

Results flagged for a closer look

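Some antibody counts fell outside the comparisons and lay above the 3 counts that a count of 0 allows. In the second E16.5 library 6 antibodies below the level of 1000 counts did so, CD44 with 57 counts, CD73 with 25, CD9 with 20, CD54 with 14, CD31 with 6 and CD200 with 5. CD127 was above this limit in all 8 other libraries, with 8 counts in the first E16.5 HP library, 51 in E18.5 HP, 146 in P0 HP, 73 in adult HP, 106 in E16.5 stroma, 187 in E18.5 stroma, 703 in P0 stroma and 801 in adult stroma. CD27 held 11 counts in adult stroma and 5 in P0 stroma. The sources of these counts were not tested.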

How the results depend on the processing

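Recomputed under the alternatives, counts of pairs, antibodies and antigen genes stayed within 1.5 times in 48 cases and did not in 8. Of the single values, 303 stayed within their counting interval (rho within 0.1, CLR by its sign), 91 moved further and 14 changed direction. As a share of the panel's counts, 51 pairs were at least 2-fold higher instead of 23, Mono/Mast was highest for 0 antibodies instead of 8, and CD135 and CD41 in Mono/Mast went from 2.03-fold and 2.04-fold above the other cells to 0.93-fold and 0.94-fold. On that scale rho over codes went from 0.78 to -0.57 for CD150, from -0.19 to 0.50 for CD34 and from -0.14 to 0.39 for CD41. Without the Mono/Mast code, an alternative added after seeing the data, 15 pairs were at least 2-fold higher. Without the 1 HSPC1 cell that was highest for 13 antibodies, also added later, 23 pairs were at least 2-fold higher and 56 instead of 57 at most 0.5 times the other cells. Without the 1 Mono/Mast cell of 2388 Ly6C counts, chosen in the same way, these were 21 and 54. With high cells chosen by the antibody's share of a cell's counts, 0 antigen genes were at least 2-fold higher in Bcell1 instead of 1, and the ratio fell below 1 for Cd93 (0.86) and Spn (0.93) in the mast codes and for Cd48 (0.94) and Il7r (0.97) in Bcell1. Thinned to 1000 UMIs, 4 antigen genes in each of the TCell and mast codes kept 50 counts and 0 were at least 2-fold higher. Without cells with marker UMIs of another type, also added later, 1 antigen gene instead of 4 was at least 2-fold higher in the mast codes, and Cd93 (0.70) and Cd27 (0.72) fell below 1. With high cells chosen by share and these cells left out, 3 antigen genes in the mast codes and 0 in Bcell1 were at least 2-fold higher, with Spn at 0.94 in the mast codes and Cd48 at 0.94 and Il7r at 0.97 in Bcell1. A level of 500 or 2000 counts would make 16 or 15 members. No paired analysis was possible because the second E16.5 library was 1 sample and its codes have no replicates.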
